A study of Mus musculus with 24 samples.

Results

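Gene expression in aldosterone-treated myotubes of dystrophin-mutant mdx mice was compared with that in aldosterone-treated myotubes of C57 mice. The members were the libraries whose labels give both the cell type and the hormone, 3 of each line, which made 6 of the 24 samples of the series. Myotubes are the multinucleate cells formed when muscle precursor cells fuse. Here they were differentiated in culture from primary myoblasts of the hindlimbs of mice under 5 days old.

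The C57 group had the genotype C57 BL/10 and the mdx group C57BL/10-Dmdmdx, per the labels, and both groups received the same hormone. Cultures had 1 µM aldosterone for 48 h in medium whose serum had been stripped of steroids with charcoal, and then hormone-free medium for 15 h until they were lysed, so the RNA was taken after the hormone had been withdrawn. Matched cultures of both lines had vehicle, 0.001% DMSO. Fibroblasts of each line had medium from aldosterone-treated myotubes of the same line for 24 h, so the line of the cell and of its medium cannot be told apart there. The labels number the 3 libraries of a group as biological replicates but do not say whether these were separate animals or pools, so p-values measure the spread between these libraries. The labels also give no breeding scheme: mdx and C57 were separate lines, and an effect of the Dmd mutation cannot be told apart from any other difference between them.

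Dystrophin, the product of Dmd, links the actin cytoskeleton of the muscle fibre to a complex of membrane proteins and through it to laminin outside the cell. Its loss in mdx mice leaves the membrane fragile and is followed in the animal by cycles of damage, inflammation and fibrosis. Aldosterone is a steroid that acts through the mineralocorticoid receptor, Nr3c2, and at high dose also through the glucocorticoid receptor, Nr3c1. Muscle fibres carry both receptors, and antagonists of the mineralocorticoid receptor have been studied in dystrophic mice.

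Total counts ranged from 15706336 to 28957931 per library, with 20749905 or more in each C57 library and 18094601 or fewer in each mdx library. Levels below are CPM, counts scaled to the TMM-adjusted library total, and log2 changes are mdx minus C57 from edgeR's quasi-likelihood fit, with their standard error (SE) and a Benjamini-Hochberg adjusted p over 15763 genes tested. A gene was called at an adjusted p below 0.05. In a principal component analysis of the 500 most variable genes, the first component (51.7% of the variance) put C57 replicate 1 with mdx replicates 1 and 3, and C57 replicates 2 and 3 with mdx replicate 2. The second component (28.2%) put the 3 C57 libraries on one side and the 3 mdx libraries on the other.

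Of the genes tested, 49 were called between the lines (0.311%), 19 higher in mdx (0.121%) and 30 lower (0.190%). Before adjustment 2469 genes had a p below 0.05. The called genes comprised 43 protein-coding genes, 3 long non-coding RNAs and 3 pseudogenes or unconfirmed transcripts. In all 49 the 3 mdx libraries lay outside the range of the 3 C57 libraries, which over all genes tested was the case for 18.2%. The genes were called from these same libraries, so their separation follows largely from the calling and is not separate support. The median log2 change over all genes tested was -0.015.

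**Figure D1:**
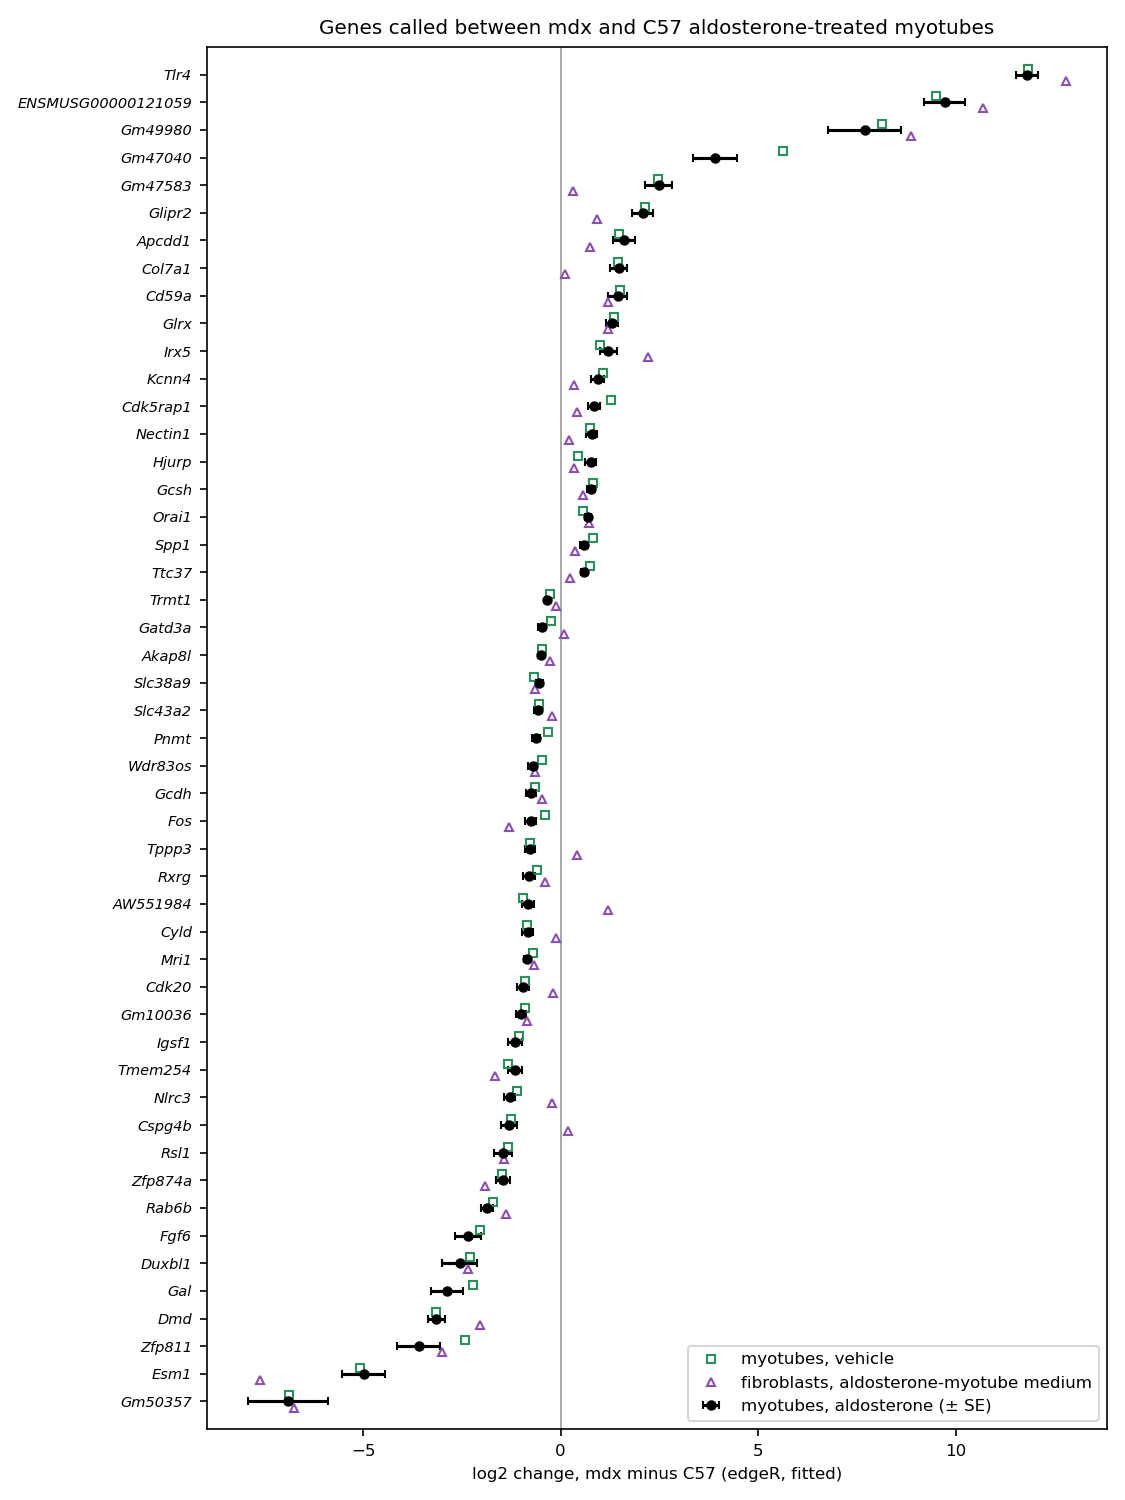
Log2 change, mdx minus C57 (x axis), of each of the 49 genes called in aldosterone-treated myotubes (rows; black points with SE bars), beside the change of the same gene in vehicle-treated myotubes (green squares) and in fibroblasts given medium from aldosterone-treated myotubes (purple triangles; absent for the 5 genes not tested there). The black points and the green squares lie on the same side of 0 for every gene. For AW551984, Tppp3, Cspg4b and Gatd3a the triangle lies on the other side.

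Dmd itself checked the labels. Its level was 449, 462 and 401 CPM in the C57 libraries and 39.6, 43.3 and 64.8 CPM in the mdx libraries. Every mdx library was thus far below every C57 library, although the transcript stayed detectable in mdx. The change was -3.15 ± 0.21 on the log2 scale (adjusted p = 5.86e-05). The change with vehicle was -3.16 and that in fibroblasts -2.04. Dmd lies on the X chromosome (mm39 81992476 to 84249747), and 5 small annotated genes or pseudogenes lie within it, whose reads cannot be assigned to a strand in these libraries.

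Of the rest of the dystrophin complex, 22 of the 23 listed genes were not called and Dmd alone was. Across the list 18 of 23 changes were below 0, with a median of -0.16, and 4 genes (Dmd among them) had all mdx libraries below all C57 libraries, as did 8.43% of all genes. Utrn encodes utrophin, the autosomal relative of dystrophin. It measured 333, 276 and 304 CPM in C57 and 256, 259 and 318 CPM in mdx. The libraries of the lines overlapped, with a change of -0.13 ± 0.11 (adjusted p = 0.61). Dag1, the gene of dystroglycan, the laminin receptor of the complex, had a change of -0.23 ± 0.14, and Cav3, the muscle caveolin, one of -0.21 ± 0.17. Neither was called.

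Among the higher genes, Tlr4 stood apart. Tlr4 is the receptor for bacterial lipopolysaccharide and for several molecules released by damaged tissue. It had 0 counts in each C57 library, against 20.2, 22.2 and 21.8 CPM in the mdx libraries (adjusted p = 1.61e-06). Taking a floor of 3 counts in each C57 library, Tlr4 was at least 165-fold higher in mdx. Tlr4 was also absent from the C57 vehicle cultures and C57 fibroblasts, where the mean was 0 CPM. As background, some substrains of C57BL/10 lack Tlr4 through a deletion, and the labels give no substrain. A long non-coding RNA within the Tlr4 locus, ENSMUSG00000121059, had 0 counts in C57 and 4.21, 6.17 and 4.70 CPM in mdx, at least 38.9-fold more. It lies within Tlr4 on the same strand, so its reads cannot be told apart from those of Tlr4 (chromosome 4, mm39 66745821 to 66848521).

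The other genes of Toll-like receptor signalling did not pass the test. Of 25 tested members of that list Tlr4 was the one called, the median change was -0.10, and 3 members had all mdx libraries above all C57 libraries (9.73% of all genes did). Irak1, a kinase next to the receptor, had a change of 0.10 ± 0.08. Nfkb1 and Rela, subunits of the transcription factor at the end of the pathway, each had one of 0.08 (SE 0.08 and 0.10).

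Other higher genes encode proteins of the cell surface and the matrix. Spp1 encodes osteopontin, a secreted phosphoprotein of injured and dystrophic muscle that binds integrins. It measured 1089, 979 and 1157 CPM in C57 and 1686, 1617 and 1585 CPM in mdx. All mdx libraries were above the C57 ones, and the change was 0.60 ± 0.10 (adjusted p = 0.037). Col7a1, the collagen of anchoring fibrils, measured 6.11, 6.55 and 6.98 CPM in C57 and 14.9, 23.1 and 16.7 CPM in mdx, a change of 1.48 ± 0.21 (adjusted p = 0.014). Cd59a encodes a membrane-anchored inhibitor of the complement attack complex. It measured 5.31, 9.40 and 6.30 CPM in C57 against 19.6, 20.8 and 16.9 CPM in mdx, a change of 1.44 ± 0.23 (adjusted p = 0.031). Nectin1, a cell adhesion molecule, measured 17.5, 15.7 and 20.4 CPM in C57 and 28.6, 36.3 and 27.6 CPM in mdx (change 0.79 ± 0.14). Apcdd1, a membrane inhibitor of Wnt signalling, measured 5.21, 4.03 and 5.66 CPM in C57 and 10.4, 21.1 and 13.5 CPM in mdx (change 1.59 ± 0.28). The mdx libraries of Apcdd1 and Col7a1 differed among themselves more than the C57 ones, with the highest value of both genes in mdx replicate 2.

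Channel genes were also among the higher ones. Orai1 encodes the pore of the store-operated calcium channel of the plasma membrane. It measured 50.8, 41.8 and 44.3 CPM in C57 and 77.5, 70.1 and 73.2 CPM in mdx. The groups were well apart, with a change of 0.69 ± 0.08 (adjusted p = 0.0045). The change was 0.57 with vehicle and 0.72 in fibroblasts, both called. Stim1, which senses calcium stores and opens Orai1 and was named after its value was seen, went the other way without being called (-0.34 ± 0.19, adjusted p = 0.40). Of the 24 genes listed for excitation-contraction coupling and calcium handling, Orai1 was the one called, and 21 of the 24 changes were below 0 (median -0.30). The most abundant members were the calcium release channel Ryr1 (-0.35 ± 0.24), the calcium pump Atp2a1 (-0.57 ± 0.35) and the store protein Casq2 (-0.41 ± 0.14). None of these was called. Kcnn4, a potassium channel opened by calcium, measured 11.1, 11.0 and 11.2 CPM in C57 and 22.1, 22.5 and 19.2 CPM in mdx, a change of 0.94 ± 0.17 (adjusted p = 0.040).

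The remaining higher genes act in the cytosol, mitochondria and nucleus. Glipr2, a Golgi-associated protein, measured 5.06, 6.70 and 6.34 CPM in C57 and 32.0, 25.8 and 18.9 CPM in mdx, a change of 2.08 ± 0.26 (adjusted p = 0.0080). Glrx, a glutaredoxin that removes glutathione from proteins, measured 7.36, 9.25 and 6.47 CPM in C57 and 17.0, 21.3 and 18.7 CPM in mdx (1.30 ± 0.16, adjusted p = 0.0045). Both genes were also called with vehicle and in fibroblasts. Gcsh, a subunit of the mitochondrial glycine cleavage system, measured 26.7, 32.9 and 27.9 CPM in C57 and 52.5, 46.1 and 49.4 CPM in mdx (0.76 ± 0.10). Cdk5rap1, which modifies mitochondrial transfer RNA, measured 13.1, 11.0 and 10.2 CPM in C57 and 20.4, 18.7 and 22.4 CPM in mdx (0.84 ± 0.15). Hjurp, the chaperone of the centromeric histone, measured 20.7, 24.7 and 26.9 CPM in C57 and 33.0, 46.4 and 43.2 CPM in mdx (0.76 ± 0.13). In each of these the lowest mdx library was above the highest C57 library. Ttc37, part of the complex that feeds RNA to the exosome, had the smallest of the called increases (0.59 ± 0.07, adjusted p = 0.0045).

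Irx5, a homeobox transcription factor, measured 3.30, 3.81 and 3.76 CPM in C57 and 8.01, 9.56 and 7.47 CPM in mdx, a change of 1.20 ± 0.21 (adjusted p = 0.043). The change was 1.00 with vehicle, where Irx5 was not called, and 2.22 in fibroblasts, where it was. Its cluster neighbour Irx3, named after its value was seen, measured 7.41, 6.63 and 7.57 CPM in C57 and 13, 25.2 and 16.5 CPM in mdx (1.34 ± 0.26, adjusted p = 0.070). Irx5 was the one called gene among 30 tested Hox and limb patterning genes. Of these 30, 11 had all mdx libraries above all C57 libraries and 2 had them all below, against 9.73% and 8.43% of all genes tested. Among the abundant members were Tbx15 (-0.11 ± 0.15) and Hoxd8 (0.47 ± 0.13), and neither was called.

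**Figure D2:**
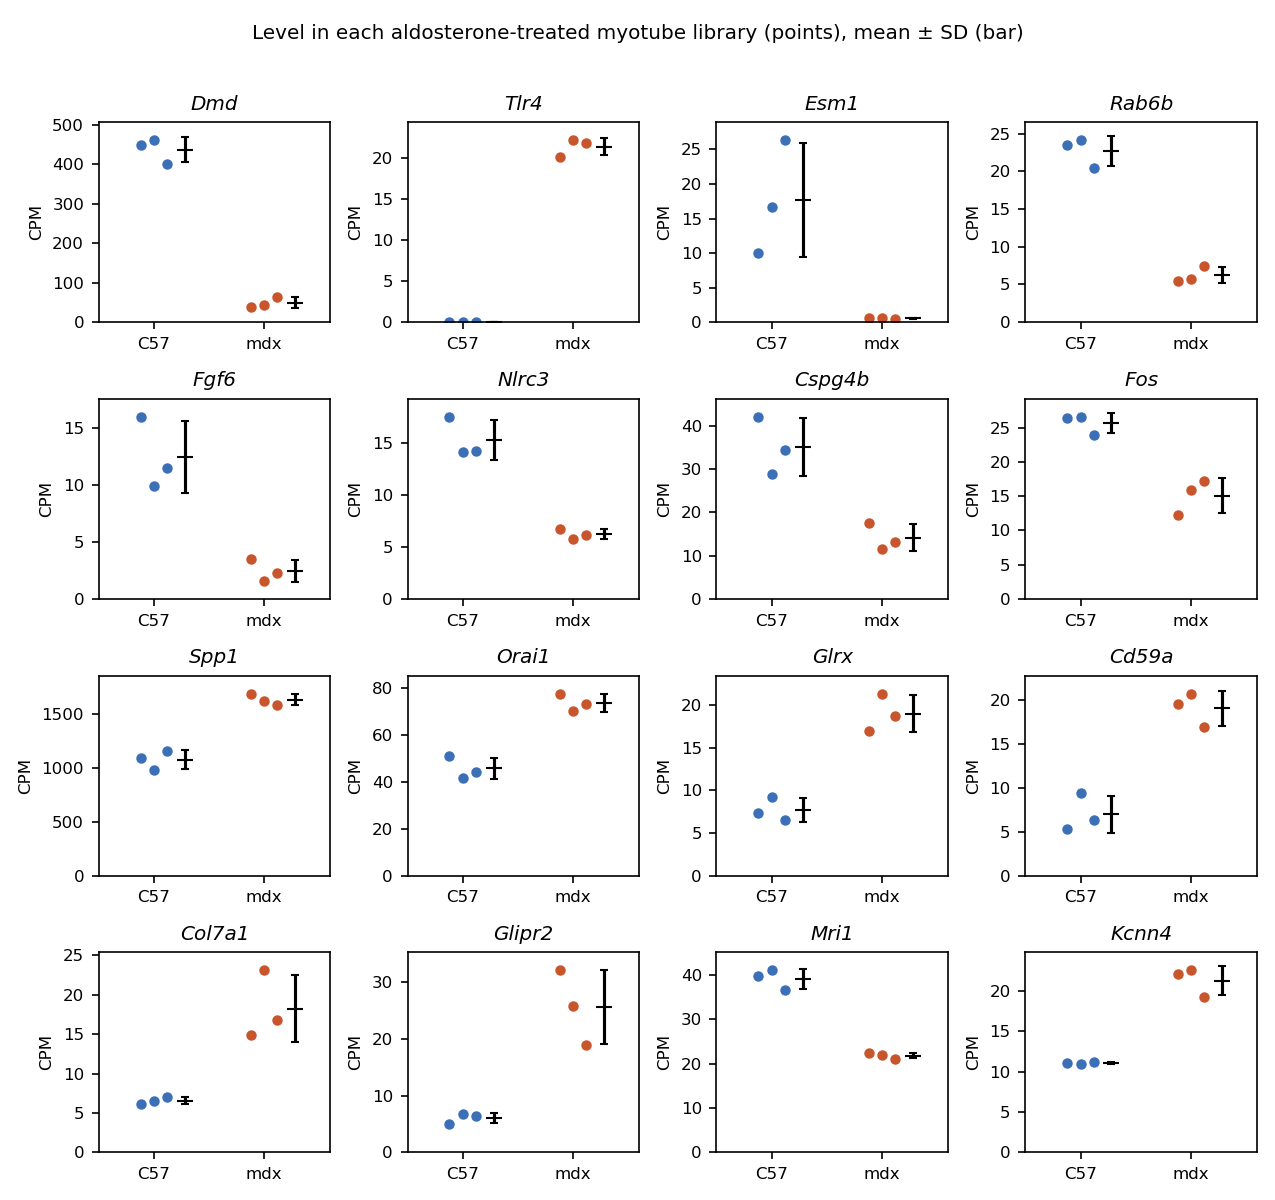
CPM (y axis, from 0) of 16 called genes in each of the 6 aldosterone-treated libraries (blue points C57, orange points mdx; n = 3 per line), with the mean and SD as a black bar. The points of the 2 lines do not overlap in any panel, and Tlr4 is at 0 in each C57 library.

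Esm1 had the largest decrease among called genes with counts in both lines. It encodes endocan, a proteoglycan secreted chiefly by endothelial cells. It measured 10.0, 16.7 and 26.3 CPM in C57 and 0.602, 0.545 and 0.509 CPM in mdx. The C57 libraries spread widely while the mdx ones were all near 0, and the change was -4.99 ± 0.55 (adjusted p = 0.0045). Esm1 was also called in fibroblasts given aldosterone-myotube medium, with a change of -7.61. Its mean there was 49.8 CPM in C57 and 0.255 CPM in mdx, and which cells of those cultures expressed it was not tested. Over 14 listed markers the summed level was 126 to 258 CPM in C57 and 40.4 to 78.2 CPM in mdx, and 7 of 13 tested markers, Esm1 among them, had all mdx libraries below all C57 libraries (8.43% of all genes did). Of the 13 changes 3 were above 0, and Esm1 was the one called. Emcn measured 55.8, 155 and 97 CPM in C57 and 18.8, 33.7 and 41.6 CPM in mdx, and Cdh5 28.2, 44.8 and 30.2 CPM in C57 against 4.45, 10.4 and 15.4 CPM in mdx. Neither of these adhesion and surface proteins of vessel cells was called (adjusted p = 0.15 and 0.13). The part of endothelial cells in the Esm1 difference was not tested, and in bulk cultures fewer cells of a type and less RNA per cell cannot be told apart.

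Genes of muscle growth and signalling were among the lower ones. Fgf6, a fibroblast growth factor largely restricted to the muscle lineage, measured 16.0, 9.88 and 11.5 CPM in C57 and 3.49, 1.57 and 2.26 CPM in mdx, a change of -2.34 ± 0.33 (adjusted p = 0.014). Fgf6 was the one called member of 17 genes for FGF ligands and receptors, whose median change was 0.12. Rxrg, a retinoid X receptor, measured 23.2, 22.4 and 19 CPM in C57 and 11.0, 11.6 and 14.5 CPM in mdx (-0.80 ± 0.14, adjusted p = 0.040). Cspg4b, a chondroitin sulphate proteoglycan, measured 42.1, 28.8 and 34.5 CPM in C57 and 17.6, 11.6 and 13.1 CPM in mdx (-1.31 ± 0.20). The mdx libraries of these genes were all below the C57 ones.

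Fos, an immediate early gene and a subunit of the transcription factor AP-1, measured 26.3, 26.5 and 23.9 CPM in C57 and 12.2, 15.9 and 17.1 CPM in mdx. The groups did not overlap, and the change was -0.76 ± 0.14 (adjusted p = 0.040). Fos was the one called gene of 21 tested immediate early genes, whose median change was 0.01. Its partner Jun had a change of -0.05 ± 0.08, Junb one of 0.12 ± 0.12 and Egr1 one of -0.14 ± 0.14.

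Nlrc3 and Cyld, both lower in mdx, are known as brakes on inflammatory signalling. Nlrc3, a cytosolic receptor of the NOD-like family that dampens innate signalling, measured 17.5, 14.2 and 14.2 CPM in C57 and 6.74, 5.81 and 6.17 CPM in mdx (-1.29 ± 0.14, adjusted p = 0.0027). Cyld, a deubiquitinase that restrains NF-kappaB, measured 134, 126 and 131 CPM in C57 and 90.8, 63.4 and 65.7 CPM in mdx (-0.83 ± 0.14, adjusted p = 0.037). Both were also called with vehicle, but neither was called in fibroblasts, where the changes were -0.21 for Nlrc3 and -0.13 for Cyld. Whether the line difference itself differed between the cell types was not tested.

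Genes of transport, metabolism and the cytoskeleton made up most of the rest. Rab6b, a small GTPase of retrograde transport to the Golgi, measured 23.5, 24.1 and 20.5 CPM in C57 and 5.48, 5.75 and 7.41 CPM in mdx (-1.87 ± 0.16, adjusted p = 0.00025). Mri1, an enzyme of methionine salvage, measured 39.9, 41.0 and 36.6 CPM in C57 and 22.3, 21.9 and 21.2 CPM in mdx (-0.84 ± 0.07, adjusted p = 0.00025). Mri1 and Rab6b had low spread within each line and were called in all 3 line comparisons. Tppp3, which promotes microtubule assembly, measured 87.2, 98.0 and 90.0 CPM in C57 and 49.8, 50.4 and 60.1 CPM in mdx (-0.78 ± 0.13). AW551984 measured 52.3, 51.6 and 55.8 CPM in C57 and 23.2, 34.1 and 32.6 CPM in mdx (-0.83 ± 0.15). Tmem254, a transmembrane protein, measured 21.8, 24.3 and 26.7 CPM in C57 and 11.0, 12.6 and 8.94 CPM in mdx (-1.16 ± 0.17). Cdk20, a cyclin-dependent kinase, measured 7.76, 7.14 and 7.31 CPM in C57 and 3.97, 4.30 and 3.11 CPM in mdx (-0.96 ± 0.15). All of these separated the lines without overlap. The zinc finger gene Zfp874a measured 7.41, 7.03 and 9.13 CPM in C57 and 2.95, 2.84 and 2.77 CPM in mdx (-1.46 ± 0.18), and the processed pseudogene Gm10036 measured 71.1, 93.9 and 71.1 CPM in C57 and 39.6, 42.2 and 36.2 CPM in mdx (-1.0 ± 0.13). Reads of these and of Duxbl1 and Rsl1 may be shared with near-identical copies, so their levels are uncertain.

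Changes were smaller in 8 further lower genes, from -0.75 to -0.33 on the log2 scale. These were Gcdh, an enzyme of lysine breakdown, the amino acid transporters Slc43a2 and Slc38a9 (the latter of the lysosome), Pnmt, which makes adrenaline, Trmt1, a transfer RNA methyltransferase, and Akap8l, Wdr83os and Gatd3a. Another 5 lower genes had means under 5 CPM in both lines, with changes from -3.59 to -1.15: Zfp811, the neuropeptide gene Gal, Duxbl1, Rsl1 and Igsf1. Gm50357, a pseudogene, had 0 counts in each mdx library and was at least 4.0-fold lower there. Of the low-level higher genes, Gm49980 had 0 counts in C57 and was at least 9.53-fold higher in mdx, and the changes were 3.91 for Gm47040 and 2.48 for Gm47583, which overlap Fst and Aopep.

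The DNA before the start of these genes was read for motifs of the muscle and hormone factors, as a description. RefSeq promoters on GRCm38.p6, a build other than that of the counts, were matched by symbol for 34 of the 49 called genes, and the 250 bases before the start were searched on both strands. The E-box of myogenic factors, CAGCTG, occurred in 8 of the 34 (23.5%) and in 14.7% of all 27025 genes with a promoter entry. The half-site of steroid receptors, TGTTCT, occurred in 3 of the 34 (8.82%: Cdk5rap1, Dmd and Glrx) and in 18.2% of all. The full steroid receptor element (the half-site, a spacer of 3 bases and its inverted copy) occurred in 0 of the 34 and in 3 of all. The 27025 genes include genes not tested in the myotubes, so these shares compare unlike sets. The E-box was found before Fos, Rab6b, Cspg4b, Rxrg, Cdk20 and AW551984, which were lower in mdx, and before Orai1 and Glipr2, which were higher. The promoters of 4 of the 8 are printed to show where the E-box, in capitals, lies relative to the start, which follows the last base. They are chr12:85473640-85473889 for Fos, chr9:103111824-103112073 for Rab6b, chr13:113292920-113293169 for Cspg4b and chr5:123014824-123015073 for Orai1, all on the plus strand.
Fos: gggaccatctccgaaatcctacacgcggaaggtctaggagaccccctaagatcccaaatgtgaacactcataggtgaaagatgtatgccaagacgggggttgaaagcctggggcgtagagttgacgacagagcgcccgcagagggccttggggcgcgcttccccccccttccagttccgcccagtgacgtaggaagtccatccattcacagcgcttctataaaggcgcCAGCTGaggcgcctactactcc
Rab6b: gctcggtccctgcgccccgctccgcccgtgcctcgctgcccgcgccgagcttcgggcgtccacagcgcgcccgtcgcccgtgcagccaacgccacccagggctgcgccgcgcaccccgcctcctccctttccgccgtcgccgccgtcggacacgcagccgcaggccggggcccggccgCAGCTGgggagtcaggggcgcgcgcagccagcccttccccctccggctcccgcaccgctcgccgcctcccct
Cspg4b: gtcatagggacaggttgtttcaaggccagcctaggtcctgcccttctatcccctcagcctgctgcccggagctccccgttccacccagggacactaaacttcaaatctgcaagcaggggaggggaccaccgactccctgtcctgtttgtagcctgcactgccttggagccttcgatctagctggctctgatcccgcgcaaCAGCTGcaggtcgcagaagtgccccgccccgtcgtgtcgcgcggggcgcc
Orai1: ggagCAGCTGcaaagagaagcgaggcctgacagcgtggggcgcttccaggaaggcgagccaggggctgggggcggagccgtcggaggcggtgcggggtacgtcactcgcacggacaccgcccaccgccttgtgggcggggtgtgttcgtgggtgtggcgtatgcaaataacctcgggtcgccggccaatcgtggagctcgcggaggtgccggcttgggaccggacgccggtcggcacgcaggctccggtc

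The E-box lies in the part of the window nearer the start in Fos, Rab6b and Cspg4b and at the far end in Orai1. The motif thus stood before genes that differed in opposite directions.

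Called genes were unevenly spread over the genome. Chromosome 13 held 10 of the 49 (20.41%) but 3.889% of the genes tested, and chromosome 8 held 8 (16.33%) but 5.291% of the genes tested. Together they held 18 called genes, 36.73% of all called against 9.18% of all tested. Outside them 31 of 14316 genes were called (0.217%). With vehicle, 12 called genes lay on chromosome 13 (21.05% of those called) and 7 on chromosome 8 (12.28%). In fibroblasts these were 19 (9.268%) and 21 (10.24%), smaller shares than in myotubes.

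**Figure D3:**
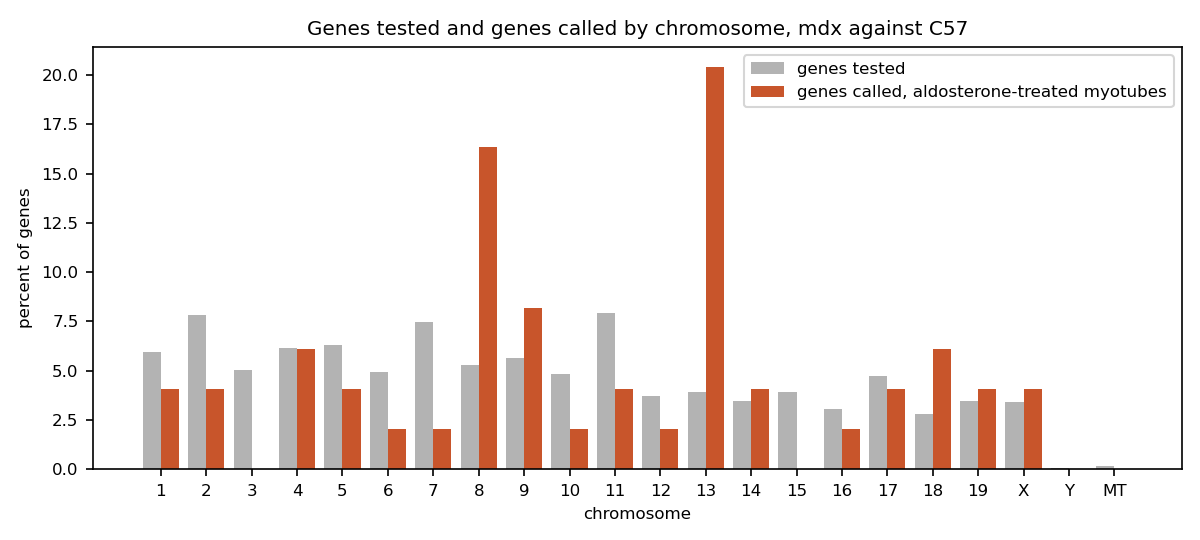
Percent of the genes tested (grey) and of the 49 genes called in aldosterone-treated myotubes (orange) on each chromosome (x axis). The orange bars of chromosomes 8 and 13 reach 16.33% and 20.41%, above their grey bars of 5.291% and 3.889%.

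Within chromosomes, some called genes lay in short runs. When called genes at most 3 Mb apart were joined, a distance chosen after seeing the data, 20 of the 49 fell into 7 runs. How many genes picked at random would fall into runs at that distance was not tested. One run on chromosome 13 (mm39 112797285 to 114598583) held Slc38a9, Esm1, Cspg4b and Gm47040 among 15 genes tested. A second there (63358764 to 67599743) held Gm47583, Cdk20, Rsl1 and Zfp874a among 33 genes tested, and another (75987987 to 76338435) held Glrx and Ttc37 among 7. On chromosome 8 (84976535 to 85808968), Mri1, Trmt1, Gcdh and Wdr83os stood among 31 genes tested, and all 4 were lower in mdx. The other runs were Tmem254 with Duxbl1 on chromosome 14, Akap8l with Zfp811 on chromosome 17, and Tlr4 with its non-coding RNA on chromosome 4. The last of these is a single locus, since the reads of the RNA cannot be told apart from those of Tlr4. The runs differed in direction: Glrx and Ttc37 were both higher in mdx, while Gm47040 and Gm47583 were each higher beside 3 lower genes. Uncalled genes within the chromosome 8 run had a median change of 0.11, against -0.33 to -0.84 for the called ones. Whether the 2 lines differ in DNA sequence at these places was not tested.

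No gene of the hormone pathway was called between the lines. Nr3c2 measured 3.25, 3.22 and 3.17 CPM in C57 and 2.17, 2.91 and 3.85 CPM in mdx, so the mdx libraries fell on both sides of the C57 ones (-0.11 ± 0.25, adjusted p = 0.87). Nr3c1 measured 71.0, 79.0 and 78.6 CPM in C57 and 63.3, 108 and 82.5 CPM in mdx (0.15 ± 0.16). Hsd11b1, the enzyme that regenerates active glucocorticoid in cells, measured 14.1, 21.4 and 16.1 CPM in C57 and 6.68, 8.35 and 19.3 CPM in mdx (-0.59 ± 0.34, adjusted p = 0.44). Only mdx replicate 3 of the mdx libraries reached the C57 range of Hsd11b1.

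Of 30 tested corticosteroid target genes, 0 were called by edgeR's test, 6 had an unadjusted p below 0.05, and 20 of the 30 changes were below 0 (median -0.13). The summed level of the list was 4443 to 4488 CPM in C57 and 3643 to 4174 CPM in mdx, without overlap. The changes of the classical targets were -0.12 ± 0.10 for Fkbp5, a co-chaperone of the receptors, -0.32 ± 0.11 for the clock gene Per1 and -0.21 ± 0.12 for Tsc22d3, the anti-inflammatory protein GILZ. Sgk1, the kinase through which aldosterone raises sodium transport in kidney, measured 25.7, 33.3 and 28.9 CPM in C57 and 22.8, 51.4 and 28 CPM in mdx (0.21 ± 0.29), with 1 high library, mdx replicate 2. Among the abundant targets were Cdkn1a (-0.10 ± 0.08), a cell cycle inhibitor, and Pdk4 (-0.42 ± 0.18), which restrains pyruvate oxidation. These adjusted p-values, from 0.22 for Per1 to 0.76 for Sgk1, do not show that the lines respond alike.

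Lists of muscle genes lay below 0 and lists of matrix genes above 0, in each case with few or no called members. Of 39 tested sarcomere genes 38 had changes below 0, with a median of -0.34, and 14 had all mdx libraries below all C57 libraries (8.43% of all genes did). Acta1, skeletal actin, measured 12702, 13218 and 12327 CPM in C57 and 8535, 8416 and 11285 CPM in mdx (-0.44 ± 0.13, adjusted p = 0.18). Myl1, a myosin light chain, had a change of -0.43 ± 0.16, and Myh8, the perinatal myosin, one of -0.34 ± 0.27. In Acta1 the mdx libraries were all below the C57 ones, with mdx replicate 3 nearest. The 7 markers of myotube identity summed to 22610 to 24501 CPM in C57 and 16441 to 21819 CPM in mdx, and Myog, a regulator of fusion and differentiation, had a change of -0.43 ± 0.13 without being called.

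The median change was 0.86 over 25 genes for fibrillar collagens and their crosslinking, 0.79 over 28 other matrix genes and 0.61 over 24 matrix proteases and inhibitors. In these lists 10, 9 and 8 genes had all mdx libraries above all C57 libraries (9.73% of all genes did), and Spp1 was the one called member. The collagen gene Col7a1, called as given above, was in none of these lists. Col1a1, a chain of the main fibrillar collagen, measured 222, 349 and 477 CPM in C57 and 660, 2008 and 1096 CPM in mdx. Its groups did not overlap, yet the mdx libraries spread widely, and the change of 1.84 ± 0.59 was not called (adjusted p = 0.21). Lox, which crosslinks collagen, had a change of 1.14 ± 0.50, Col5a2 one of 0.86 ± 0.34 and Fn1, fibronectin, one of 0.73 ± 0.29. Thbs1, a matrix glycoprotein that activates TGF-beta, had a change of 0.48 ± 0.30, and Fbln2, a fibulin, one of 0.66 ± 0.36. The fibrosis markers Ccn2 (0.41 ± 0.30), Postn (1.37 ± 0.69) and Acta2 (-0.32 ± 0.14) were not called.

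None of the fibroblast markers was called. The 18 fibroblast markers summed to 529, 773 and 855 CPM in C57 and to 1075, 3597 and 1918 CPM in mdx, with the highest sum in mdx replicate 2, the library that was also highest for Col1a1 and Postn. Their median change was 1.59, 7 of 16 tested members had all mdx libraries above all C57 libraries (9.73% of all genes did), and Tcf21 was at 0 counts in each library. Col3a1 measured 70.0, 161 and 106 CPM in C57 and 107, 927 and 449 CPM in mdx (2.13 ± 0.86, not called). The part of fibroblasts left in the cultures in the matrix differences was not tested. Macrophage and leukocyte markers, by contrast, split libraries within both lines: the sums were 17.4, 473 and 270.5 CPM in C57 and 7.46, 249 and 16.6 CPM in mdx. Lyz2, a macrophage lysozyme, measured 6.11, 214 and 117 CPM in C57 and 1.08, 118 and 4.58 CPM in mdx. No macrophage marker separated the lines, although all 19 tested changes were below 0 (median -1.58, and -3.89 with vehicle). Each of the 12 housekeeping genes listed overlapped between lines, and their median change was 0.00.

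**Figure D4:**
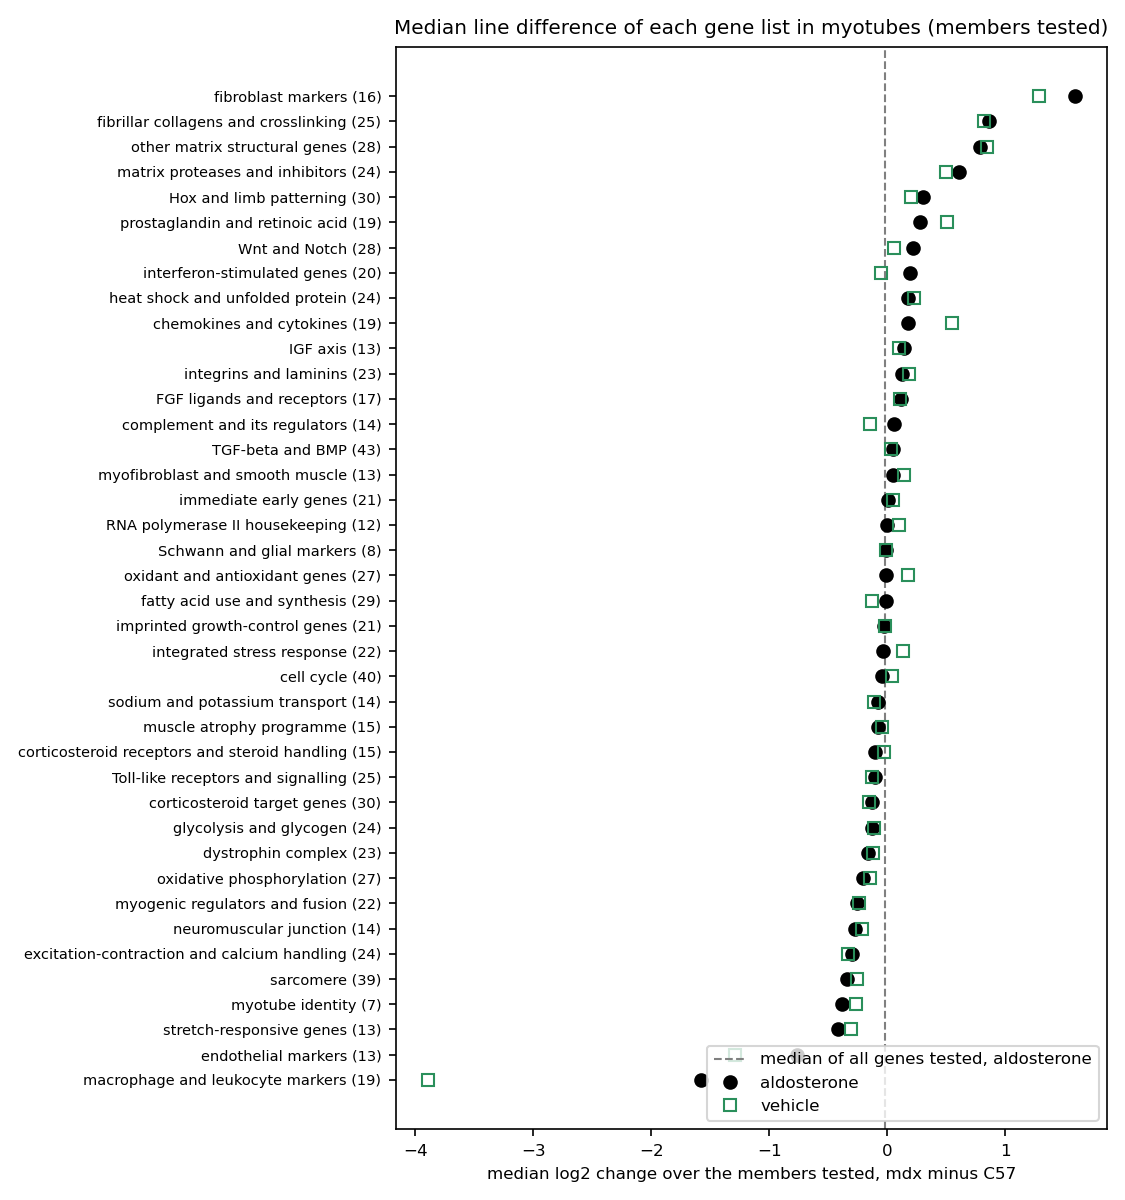
Median log2 change, mdx minus C57, over the tested members of each gene list (number of members in brackets), in aldosterone-treated (black) and vehicle-treated (green) myotubes, with the median of all genes tested as a dashed line. Among the black points, fibroblast markers and matrix lists lie highest and macrophage and endothelial markers lowest. Lists with 2 tested members were left out.

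**Figure D5:**
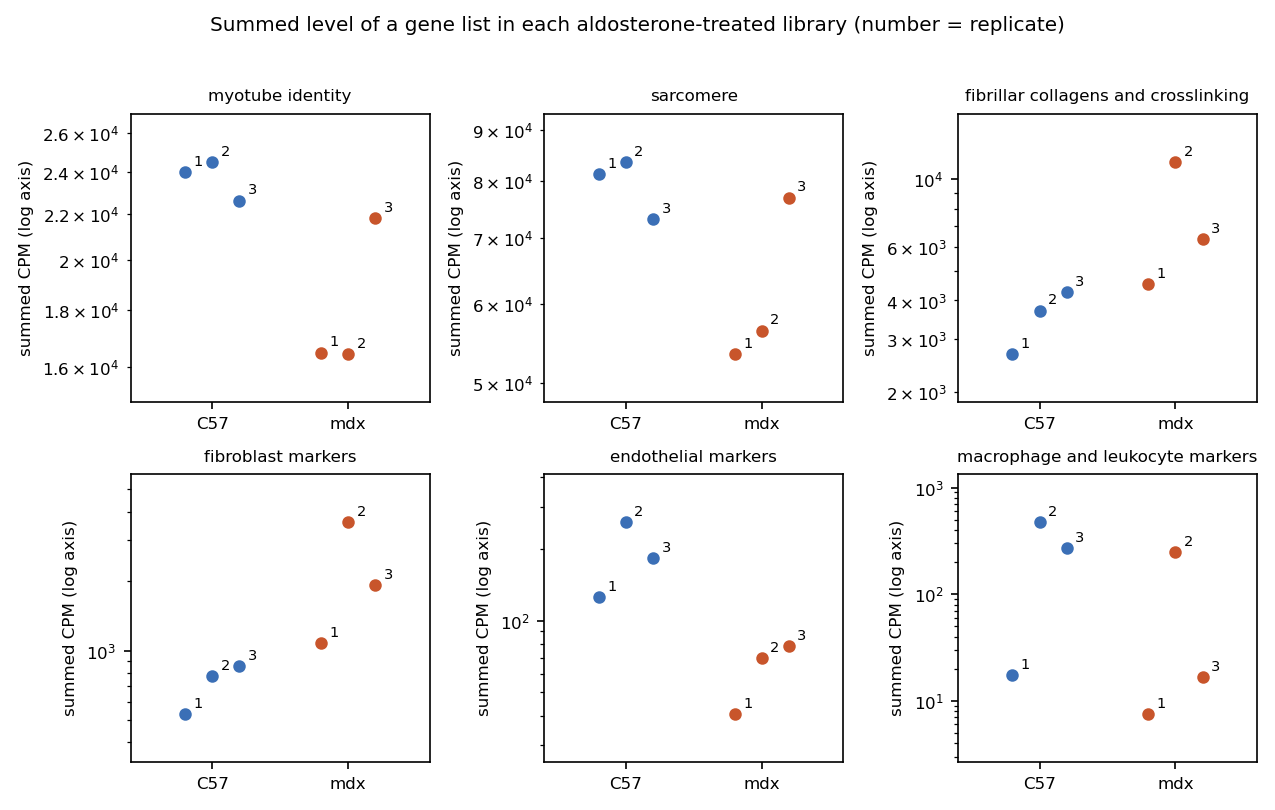
Summed CPM (log axis) of the genes of 6 lists in each aldosterone-treated library (blue C57, orange mdx; numbers are replicates). The fibroblast and collagen sums of the mdx libraries lie above those of C57, the endothelial sums below, and the macrophage sums overlap, with C57 replicate 1 and mdx replicates 1 and 3 low.

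The vehicle-treated cultures of the same lines showed most of the same differences. With vehicle 57 genes were called (0.362%), 22 higher (0.140%) and 35 lower (0.222%). The 2 sets shared 38 genes, which were 77.55% of those called with aldosterone and 66.67% of those called with vehicle, and all 38 had the same direction. All 49 genes called with aldosterone had the same sign with vehicle and an unadjusted p below 0.05 there. The 11 that were not called with vehicle were Zfp811, Wdr83os, Gcdh, Trmt1, Rxrg, Fos, Hjurp, Apcdd1, Irx5, Pnmt and Gatd3a, with vehicle adjusted p-values from 0.052 (Apcdd1) to 0.25 (Fos). Fos had a change of -0.40 with vehicle against -0.76 with aldosterone. The vehicle and aldosterone libraries shared a fit and its estimate of the spread, and same-numbered cultures are taken as paired. The agreement between the 2 sets is therefore not an independent repeat.

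The difference between these 2 line differences was tested itself. No gene was called for it (0 of 15763), and 152, or 0.964%, had an unadjusted p below 0.05. DESeq2 also called 0. Neither test used the pairing of cultures, so the 0 does not show that the line differences were alike. Vehicle and aldosterone cultures with the same number deviated together, and with the culture as a block 7 genes were called (0.0444%), none of them among the 49. In that blocked edgeR test 835 genes had an unadjusted p below 0.05. For 6 of the 7 the line difference was more positive with aldosterone than with vehicle: Lpl, the lipoprotein lipase that frees fatty acids, by 1.1 ± 0.13, and the leukocyte genes Tyrobp, C1qc, Hcls1, Csf1r and Vav1 by 1.86 to 4.12. In mdx with vehicle, Tyrobp measured 0, 0.842 and 0.0710 CPM, C1qc 0, 2.38 and 0.568 CPM and Vav1 0, 0.140 and 0 CPM. The sizes for Tyrobp, C1qc and Vav1 therefore rest on few counts and are uncertain. Csf1r, the receptor that macrophages need to survive, measured 1.00, 18.9 and 15.1 CPM with aldosterone and 1.13, 27.2 and 17.2 CPM with vehicle in C57. In mdx it measured 0.120, 7.69 and 0.849 CPM with aldosterone and 0.0941, 1.89 and 0.782 CPM with vehicle. Among the mdx cultures, replicate 2 had the highest level and differed most between treatments. Without mdx culture 2 the number of genes called fell from 7 to 2. Ptgs2, the inducible cyclooxygenase, had a line difference 0.56 ± 0.10 lower with aldosterone (0.12) than with vehicle (0.66). Tyrobp, C1qc and Csf1r belong to the macrophage and leukocyte markers whose sums are given above, and the part of such cells in these differences was not tested.

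In fibroblasts given medium from aldosterone-treated myotubes, 205 of 16671 genes were called between the lines (1.23%), 99 higher in mdx (0.594%) and 106 lower (0.636%). Of the 49 myotube genes 44 were tested there, and 22 of these were called, all in the same direction. The shared 22 were 50% of the 44 and 10.73% of the 205. In all, 18 genes were called in aldosterone myotubes, vehicle myotubes and fibroblasts: Tlr4 with its non-coding RNA, Dmd, Mri1, Rab6b, Glrx, Esm1, Orai1, Zfp874a, Gm10036, Glipr2, Gcsh, Tmem254, Gm49980, Cd59a, Duxbl1, Slc38a9 and Gm50357. Fgf6, Gal, Igsf1, Pnmt and Gm47040 had too few counts to be tested in fibroblasts. Spp1, Col7a1, Kcnn4 and Nectin1 were not called in fibroblasts, with changes of 0.35, 0.10, 0.33 and 0.20.

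How firmly a gene was called varied. Leaving out 1 aldosterone library at a time left 12 to 37 genes called. Without C57 replicates 1, 2 and 3 the number was 15, 23 and 12, and without mdx replicates 1, 2 and 3 it was 37, 22 and 25. Of the 49 genes, 12 were called in all 6 of those fits: Dmd, Tlr4, its non-coding RNA, Glrx, Gm10036, Mri1, Nlrc3, Orai1, Rab6b, Zfp874a, Esm1 and Ttc37. Another 14 were called in none of the 6, among them Spp1, Fos, Irx5, Kcnn4, Nectin1, Cdk5rap1 and Duxbl1. No called gene changed direction in these fits.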

How the data were processed

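RNA from 24 cultures (8 groups of 3) was sequenced from non-directional poly(A) libraries, per the labels' protocols. The authors counted whole reads per gene with featureCounts 1.5.0-p3 on mm39, per the submitters' processing notes, and deposited these counts for 56748 genes. Their aligner and annotation release were not given in the sources used here. FPKM values were not used.

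In R 4.3.3 the 12 myotube libraries were fitted together with edgeR 4.0.16 (default low-count filter, TMM, robust quasi-likelihood test, Benjamini-Hochberg adjustment over all genes kept, no covariates), and the 12 fibroblast libraries likewise. SEs were derived from the change and its F statistic. Floors cover counting error only. The fit was tested on simulated data for the aldosterone comparison, with 15763 genes. The genes changed in it were taken from those with a mean of at least 5 CPM, and the libraries were drawn as independent. Of the genes changed by log2 1, 93% were recovered, and of those changed by log2 2, 100%. In the same simulation 12 unchanged genes were called. These rates hold for the simulated spread and need not hold for genes below 5 CPM, for paired cultures or for genes whose libraries spread widely. Col1a1, with a change of 1.84 ± 0.59, was not called. Depth was 15706336 to 28957931 counts in the 6 libraries.

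The members and 41 gene lists were chosen with earlier results of these data known. The naming rule took every called gene, values in each library where a line's mean was at least 5 CPM (at most 15 genes each way), called members and the 3 most abundant members of lists, interaction calls and fixed receptor, target and fibrosis genes. Not every list is named, and some members that the rule takes are not reported here. Alternatives were scaling, filter, DESeq2 1.42.0, limma 3.58.1 (voom), replicate blocks, the 6 libraries alone and each library left out. Same-numbered vehicle and aldosterone cultures are taken as paired, since their deviations from group means correlated in every pair (0.359 to 0.704 in C57, 0.482 to 0.673 in mdx). Differently numbered C57 cultures also correlated for aldosterone 2 with vehicle 3 (0.256) and aldosterone 3 with vehicle 2 (0.350). All other differently numbered pairs within a line were below 0. The pairing of C57 cultures 2 and 3 is thus poorly told apart.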

Additional observations from a re-analysis of the deposited data

Results flagged for a closer look

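With the culture as a block, edgeR's interaction test gave 7 genes whose line difference was not the same with aldosterone as with vehicle. The difference (aldosterone minus vehicle, log2) was 1.1 for Lpl, 3.24 for Tyrobp, 2.29 for C1qc, 1.98 for Hcls1, 1.86 for Csf1r, 4.12 for Vav1 and -0.56 for Ptgs2, with adjusted p from 0.00039 to 0.050. Libraries of the 2 lines overlapped with aldosterone for each of the 7. The sizes for Tyrobp, C1qc and Vav1 rest on few counts in the mdx vehicle cultures. Without the block 0 genes were called.

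AW551984 was lower in all 3 mdx libraries of aldosterone-treated myotubes and higher in all 3 mdx libraries of fibroblasts given aldosterone-myotube medium. In these fibroblasts it measured 5.02, 4.48 and 6.51 CPM in C57 and 11.6, 11.0 and 14.1 CPM in mdx. The change of 1.19 on the log2 scale was not called by edgeR's test (adjusted p = 0.072). The difference between cell types was not tested.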

How the results depend on the processing

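Against 49 genes called with aldosterone, the count was 163 with no low-count filter and 460 with DESeq2 (278 higher, 182 lower). It was 93 with limma-voom and culture as a random effect. With the 6 libraries alone it was 23, of which 22 were among the 49. It was 46 with DESeq2's size factors and 52 with a filter of 1 CPM in 3 libraries. Against 57 with vehicle it was 156 with no filter, 376 with DESeq2 and 6 with the 6 libraries alone, and against 205 in fibroblasts 452 and 544 with no filter and DESeq2. Leaving out 1 library gave 12 to 37 genes with aldosterone, 20 to 104 with vehicle, 89 to 170 in fibroblasts and 0 for the interaction. With the replicate number as a block across lines the counts were 397 with aldosterone (229 higher, 168 lower) and 433 with vehicle. The labels do not say whether same-numbered libraries of the 2 lines were handled together. Their deviations correlated at 0.331, 0.329 and -0.164 with aldosterone, and differently numbered pairs at -0.418 to 0.256. With vehicle the same-numbered pairs correlated at 0.063, 0.251 and -0.090, and the others at -0.225 to 0.178. The culture block gave 7 interaction genes, and leaving out 1 culture in that fit, chosen after seeing the data, gave 13, 7 and 5 without C57 cultures 1, 2 and 3 and 16, 2 and 23 without mdx cultures 1, 2 and 3. The causes of these shifts in counts were not tested.

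Of the 49 genes, 10 were called in all 13 planned settings and 39 lost their call in at least 1; Esm1 lost it only with limma-voom and culture as a random effect, and Ttc37 only with the 6 libraries alone. None of the 49 changed direction. Among uncalled genes named here, the log2 change crossed 0 in the fits that left out 1 library: it ranged from -0.059 to 0.325 for Nr3c1, -0.342 to 0.073 for Nr3c2, -0.205 to 0.433 for Sgk1, -0.014 to 0.151 for Rela, -0.318 to 0.033 for Egr1, -0.119 to 0.0073 for Jun and -0.131 to 0.288 for Ptgs2. Depth limits Gm49980, Gm50357 and Zfp811, whose calls rest on few counts.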

Other observations

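Some lists without a called member had most changes on 1 side of 0. All 27 tested genes of oxidative phosphorylation had changes below 0 (median -0.21), although 1 had all mdx libraries below all C57 libraries. Of 22 tested myogenic regulators and fusion genes 20 were below 0 (median -0.26), and of 14 genes of the neuromuscular junction 12 were (median -0.28). Stretch-responsive genes had a median of -0.42 over 13 tested. Of 43 genes of TGF-beta and BMP signalling 11 had all mdx libraries above all C57 libraries and 2 had them all below (9.73% and 8.43% of all genes did), with a median change of 0.05. Others were balanced, as the 40 tested cell cycle genes with 17 changes above 0 and 23 below (median -0.04).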
